A study of Homo sapiens with 28 samples.

Results

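The open chromatin around MYC and its neighbour PVT1 was described across 28 ATAC-seq libraries of the AN3CA cell line, which was established from a human endometrial carcinoma. ATAC-seq uses a transposase that cuts and tags accessible DNA, so a peak marks an open stretch of chromatin. The locus was taken as chr8:128000000-129700000 in hg19, a window of 1.7 Mb. It holds MYC at chr8:128748315-128753680, PVT1 at chr8:128806779-129113499 and a region at chr8:129440114-129442354 that had been picked because its peak was weaker with wild-type ARID1A or ARID1B than with the empty vector, called the weakened region here. Of 1247388 deposited peaks, 1256 lay in the window.

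Peak lists of different lengths cannot be compared by rank, so each list was cut to its 19433 strongest peaks by -log10 p-value, and overlapping peaks of all libraries were merged. Rank 1 is the strongest peak of a library, and a library with no peak in a region was placed last, at 19434. In these equal-length lists 404 window peaks remained, which formed 39 regions. The 34 regions found in at least 2 libraries are described here, out of 32972 such regions on chromosomes 1 to 22 and X, and the other 5 were each found in 1 library. Regions are named by their distance from the MYC start, with a plus sign on the PVT1 side.

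Each group expressed 1 construct in AN3CA cells, and all names are those of the titles. The altered forms of ARID1A were ARID1A_DBDmut (a mutated ARID domain, per the labels), ARID1A_delIDR1 and ARID1A_CBR (truncations), ARID1A_DDX4 (a hybrid with the disordered region of DDX4), ARID1A_AQGscramC1C2 and ARID1A_Y42S. The altered forms of ARID1B were ARID1B_S320_G327del, ARID1B_A457_G461del, ARID1B_Block13del and ARID1B_Block9del. These 10 altered constructs, ARID1A_WT and ARID1B_WT had 2 libraries each, and Empty_vector had 4. For ARID1A_AQGscramC1C2, ARID1A_Y42S and the altered ARID1B forms other than ARID1B_S320_G327del, 10 libraries in all, the genotype label names the empty vector, and they were grouped by title. The labels used here do not say how the constructs were expressed, which ARID1A or ARID1B the cells still made, or whether replicates were separate cultures, so p-values measure the spread between these libraries, which may be technical. Cell identity was not checked against marker genes, since the lists hold positions without gene names.

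MYC encodes a transcription factor that drives growth and proliferation and is often overexpressed in cancer. It lies in a region with few other protein-coding genes, and much of its control comes from distal enhancers spread over the surrounding chromatin. PVT1, the long non-coding RNA gene beside it, carries enhancers of MYC inside its own body, and its promoter can compete with the MYC promoter for them. ARID1A and ARID1B are alternative subunits of the canonical BAF complex, an ATP-driven remodeler that keeps many distal enhancers open. In the gene order of GRCh38, used for names only, the long non-coding RNA genes CCAT1, CASC8 and CASC11 and the protein-coding POU5F1B precede MYC, the microRNA genes MIR1204 to MIR1208 lie within or next to PVT1, and LINC00824, LINC00976, LINC00977 and CCDC26 follow it.

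The 34 regions were unevenly placed. Upstream of MYC there were 4, the MYC start and the PVT1 start had 1 each, 3 lay between the genes, 15 within PVT1 and 10 downstream of PVT1. Most of them thus lay on the PVT1 side of MYC. Only the MYC start, the PVT1 start and the +119 kb region, which lies within PVT1, were called in all 28 equal-length lists. That is 8.82% of the window's regions, against 30.1% of all 32972 regions. In contrast, 25 regions (73.5%) were called in no equal-length Empty_vector list, against 30.8% of all regions. In full lists 11 of these had no Empty_vector peak. Since the window was chosen with the wild-type and Empty_vector lists known, these shares are a description only. The median merged width was 997.5 bp in the window and 977 bp over all regions.

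**Figure D1:**
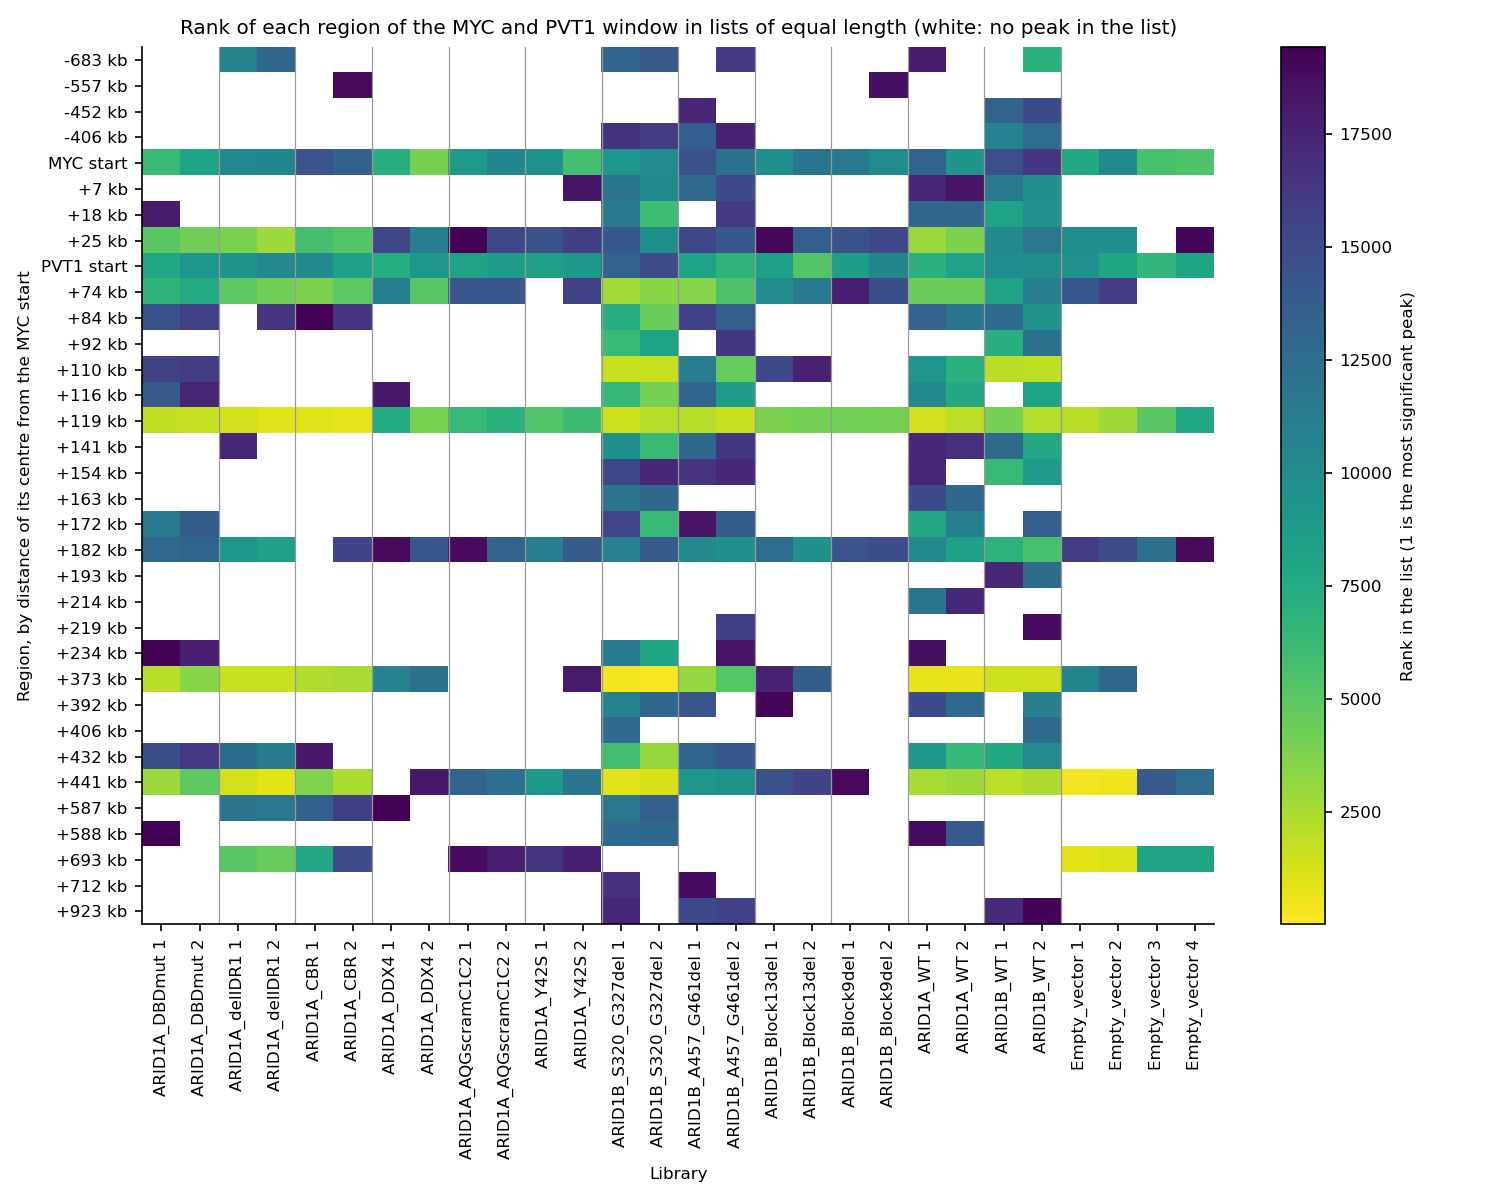
Ranks of the 34 window regions (rows, in order along the chromosome, named by distance from the MYC start in kb) in the 28 equal-length lists (columns, altered constructs, then wild types, then Empty_vector), from yellow for the best ranks to dark purple for the worst, with white for no peak. The MYC start, PVT1 start and +119 kb rows are filled in all 28 lists, while the +84, +110 and +141 kb rows, within PVT1, are filled in every library of ARID1B_S320_G327del, ARID1B_A457_G461del and the wild types and white in Empty_vector.

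The deposited lists differed in length, from 19489 peaks (ARID1A_Y42S 2) to 76589 peaks (ARID1A_WT 1), and the sequencing depth behind them is unknown. Each peak name starts with a date code, and the 6 codes are called A to F here. Codes A and B each hold 1 library of ARID1A_DBDmut, ARID1A_delIDR1, ARID1A_CBR, ARID1A_WT and Empty_vector, and code C holds ARID1B_S320_G327del, ARID1B_WT and 2 libraries of Empty_vector. ARID1A_DDX4 (D), ARID1A_AQGscramC1C2 (F) and the 4 constructs of code E (ARID1A_Y42S, ARID1B_A457_G461del, ARID1B_Block13del and ARID1B_Block9del) have no wild-type or Empty_vector library of their own code. The 2 Empty_vector pairs stood apart in list length, with 45286 and 49528 peaks in codes A and B and 24573 and 28353 in code C, so results against Empty_vector are also given within codes.

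The number of window regions called in the equal-length lists differed widely between constructs. At equal list length ARID1B_S320_G327del libraries called 28 and 25 of the 34 regions and ARID1B_A457_G461del libraries called 21 and 23. ARID1A_DBDmut called 16 and 14, ARID1A_delIDR1 13 and 13, and ARID1A_CBR 11 and 12. ARID1B_Block13del called 10 and 9, ARID1A_DDX4 9 and 8, ARID1A_AQGscramC1C2 8 and 8, ARID1A_Y42S 7 and 10, and ARID1B_Block9del 7 and 7. The counts of ARID1B_S320_G327del and ARID1B_A457_G461del lay within or above the range of the wild types, the ARID1A truncations and ARID1A_DBDmut lay between, and the last 5 constructs overlapped the range of Empty_vector. ARID1A_WT called 23 and 20, ARID1B_WT called 20 and 26, and Empty_vector called 9, 9, 6 and 7.

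The 10 altered constructs were not used to choose the locus, so differences among them could be tested. The 34 regions, however, were kept through calls in any of the 28 libraries, altered ones included. Most had no equal-length call in Empty_vector, so a construct that called as the wild types did has a high count partly through that choice. The number of window regions called differed between them by more than the spread between replicates (F = 58.7, permutation test with 100000 resamples, p = 1e-05, the smallest these can give, adjusted p = 3e-05 over 3 measures, n = 20 libraries). Over all 32972 regions the same libraries called between 55.3% and 58.6%, which the equal list length largely fixes. Outside codes A and B, both libraries of each altered construct shared a date code, and labels were permuted across codes. The test over the 10 constructs therefore cannot tell construct from date code. Within date code E the same comparison among 4 constructs gave F = 54.6 and an exact permutation p of 0.0857 (n = 8, smallest possible 0.00952 without tied values). Among the 3 altered constructs of codes A and B it gave an exact permutation p of 0.0667 (n = 6), the smallest those libraries allow.

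Length of the deposited list moved with the count even though ranks were cut at the same depth. Across the 28 libraries Spearman's rho between list length and window regions called was 0.816, and across the 20 altered libraries it was 0.797, as a description of libraries that share constructs and date codes. At similar lengths the counts still spread. ARID1B_A457_G461del 2 with 50763 peaks called 23 regions, ARID1A_DBDmut 2 with 48850 called 14, and Empty_vector 2 with 49528 called 9. ARID1A_CBR 2, with a list of 66013 peaks, called 12. The part of depth in the count was not tested.

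**Figure D2:**
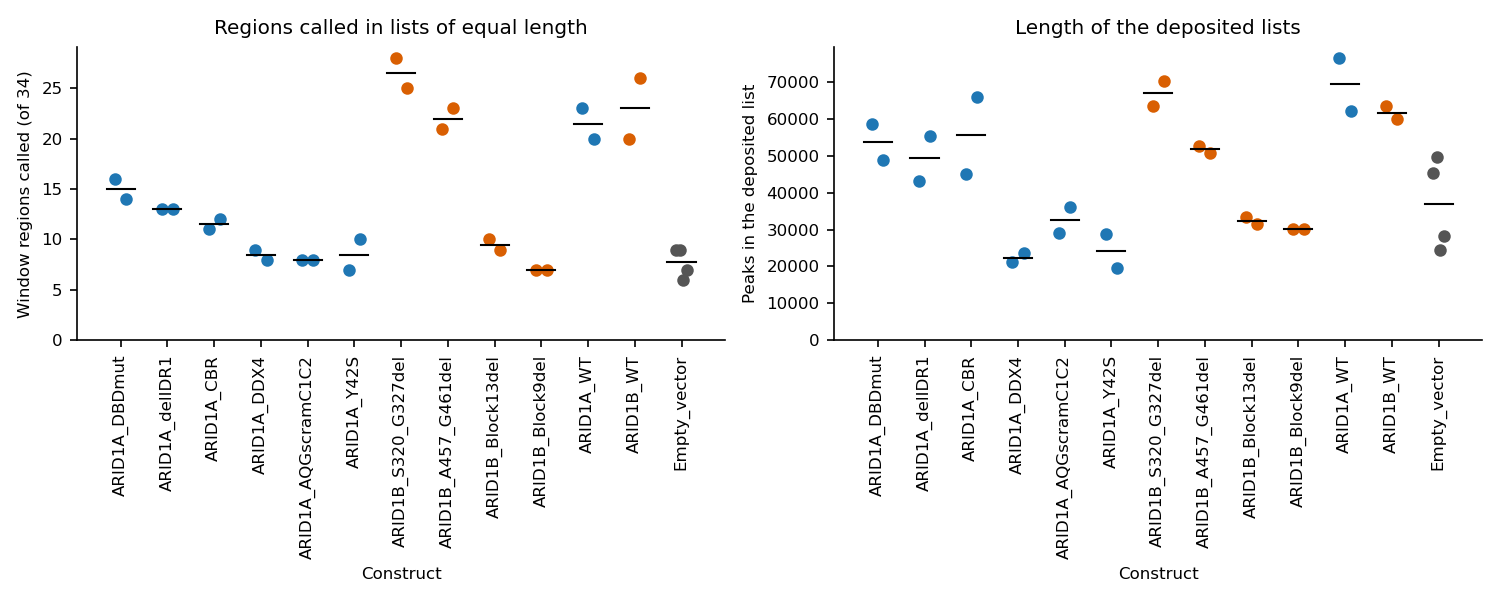
Number of the 34 window regions called in each library at equal list length, by construct (left), beside the number of peaks in each deposited list (right). Points are libraries, blue for ARID1A, orange for ARID1B and grey for Empty_vector, and black bars are group means. ARID1B_S320_G327del and ARID1B_A457_G461del lie at 21 to 28 regions, the wild types at 20 to 26 and Empty_vector at 6 to 9.

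As a share of the whole deposited list the window held 0.0508% to 0.121% of peaks in the altered libraries, 0.120% to 0.134% in the wild types and 0.0459% to 0.0949% in Empty_vector. The wild-type shares all lay above those of Empty_vector. Single libraries rest on few peaks, from 11 to 103 in the window, and for ARID1A_WT 1 the share of 0.134% had a 95% Wilson interval of 0.111% to 0.163%, while for Empty_vector 4 the share of 0.0459% had one of 0.0268% to 0.0784%. These intervals cover counting error only, and neighbouring peaks are not independent.

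The peak at the MYC promoter was open in every library. Its merged region, chr8:128745336-128750999, covers 5664 bp and spans the MYC start. Peaks that cross the start had a median width of 1337.5 bp and a fold enrichment between 2.56 and 4.87 over the caller's background. A small separate peak lay about 2 kb upstream in 23 whole lists, with a median width of 241 bp, and in 4 libraries (ARID1A_CBR 2, ARID1A_DBDmut 2, ARID1A_AQGscramC1C2 2 and Empty_vector 1) the start peak itself reached over it. A separate peak inside the gene appeared in 10 whole lists and in no equal-length list, and in 5 libraries (ARID1A_CBR 1 and 2, ARID1A_AQGscramC1C2 2, ARID1A_WT 1 and Empty_vector 2) the start peak itself reached that far.

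**Figure D3:**
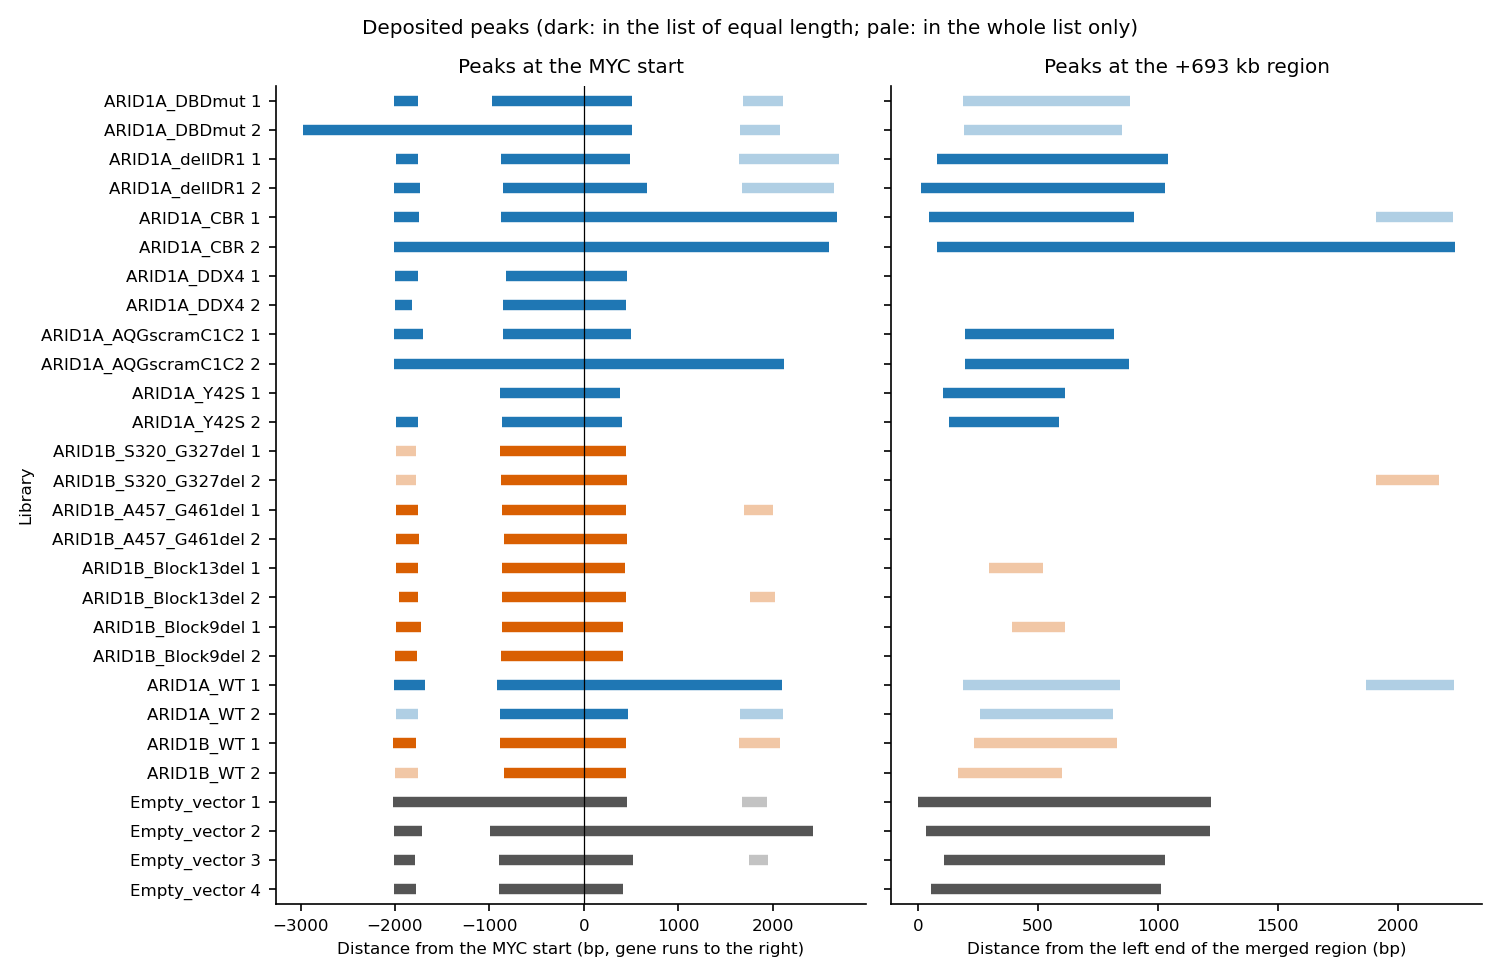
Deposited peaks at the MYC start (left, in bp from the start, the gene running to the right) and at the weakened region (right, in bp from the left end of the merged region), 1 row a library, with altered constructs at the top and Empty_vector at the bottom. Bars are peaks, dark if in the equal-length list and pale if in the whole list only, in blue for ARID1A, orange for ARID1B and grey for Empty_vector. A peak crosses the MYC start in all 28 libraries, and at the weakened region the 4 wild-type libraries have pale bars and the 4 Empty_vector libraries dark ones.

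Although always open, the MYC promoter held a different place in the lists of different constructs. Among altered constructs its rank was 3981 at best, 10072 at the median and 14559 at worst. In the wild types the ranks were 13147 and 9395 with ARID1A_WT and 14705 and 16377 with ARID1B_WT. In Empty_vector they were 7629, 10157, 5629 and 5333. The wild-type libraries thus ranked the MYC promoter 6219 places worse on average than Empty_vector, but ARID1A_WT 2 lay inside the Empty_vector range. That difference depended on the ranking: it was 686 places with peaks ranked by fold enrichment, 748 places where a peak had to cover at least 50% of the region, and 2560 places with lists cut to 9716 peaks. In the 50% setting only ARID1A_WT 1 and Empty_vector 2, of the wild-type and Empty_vector libraries, had a peak wide enough, and the others were placed last. Within date code C both ARID1B_WT libraries ranked the MYC promoter worse than both Empty_vector libraries, and within codes A and B the ranks of ARID1A_WT and Empty_vector overlapped. Rank is relative to the other peaks of the same list, and these lists hold no absolute signal. Without ARID1A_WT 2, or without Empty_vector 2, the MYC start would join the weakened region among those ranked worse in every wild-type library, which makes 2 such regions in place of 1.

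Among the altered constructs the MYC promoter ranked best with ARID1A_DDX4, at 7236 and 3981. Next in order of mean rank came ARID1A_DBDmut (6366 and 8138), ARID1A_Y42S (9416 and 5763), ARID1B_S320_G327del (9199 and 10094) and ARID1A_AQGscramC1C2 (9011 and 10495). ARID1A_delIDR1 (10447 and 10504), ARID1B_Block13del (9677 and 11884) and ARID1B_Block9del (11611 and 10049) lay in the middle. ARID1B_A457_G461del (14559 and 12126) and ARID1A_CBR (14470 and 13500) ranked worst. Neighbours in this order overlapped, except that both ARID1B_Block9del libraries ranked it better than both ARID1B_A457_G461del libraries. By mean rank ARID1A_WT (11271) stood between those 2 constructs, ARID1B_WT (15541) after all of them, and Empty_vector (7187) between ARID1A_DDX4 and ARID1A_DBDmut. In ARID1A_delIDR1 1 and ARID1B_Block9del 1 the best peak of the region was the one upstream. The ranks differed across the 10 constructs (F = 6.16, permutation test with 100000 resamples, p = 0.00384, adjusted p = 0.00384, n = 20). Labels were permuted across date codes here too, so that test cannot tell construct from date code. Within code E the exact permutation p was 0.0952 (n = 8), and in codes A and B it was 0.0667 (n = 6), the smallest possible there. The difference was no longer past the threshold when peaks were ranked by fold enrichment (permutation p = 0.105) or when lists were cut to 9716 peaks (permutation p = 0.0799), nor when a peak had to cover at least 50% of the region (permutation p = 0.307). In that last setting only ARID1A_CBR 1 and 2, ARID1A_DBDmut 2 and ARID1A_AQGscramC1C2 2, of the altered libraries, had a peak wide enough for the 5664 bp region.

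The PVT1 promoter was also open in every library. Its region, chr8:128805986-128808816, covers 2831 bp in width. In altered libraries its rank was 5219 at best, 8640 at the median and 14957 at worst. ARID1A_WT had 7024 and 8239, ARID1B_WT had 9954 and 9892, and Empty_vector had 9585, 7962, 6565 and 7944. Wild type and Empty_vector overlapped when all 4 libraries of each were taken, with a mean difference of 763 places. Within date code C both ARID1B_WT libraries ranked the PVT1 promoter worse than both Empty_vector libraries. Within codes A and B the ranks of ARID1A_WT and Empty_vector overlapped. ARID1B_S320_G327del stood apart, at 13276 and 14957, while the worst rank in any other library was 10517. It was also the construct with the most regions called within PVT1 at equal length, at 12 in each library. Across the 28 libraries the ranks of the MYC and PVT1 promoters had a Spearman's rho of 0.137.

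**Figure D4:**
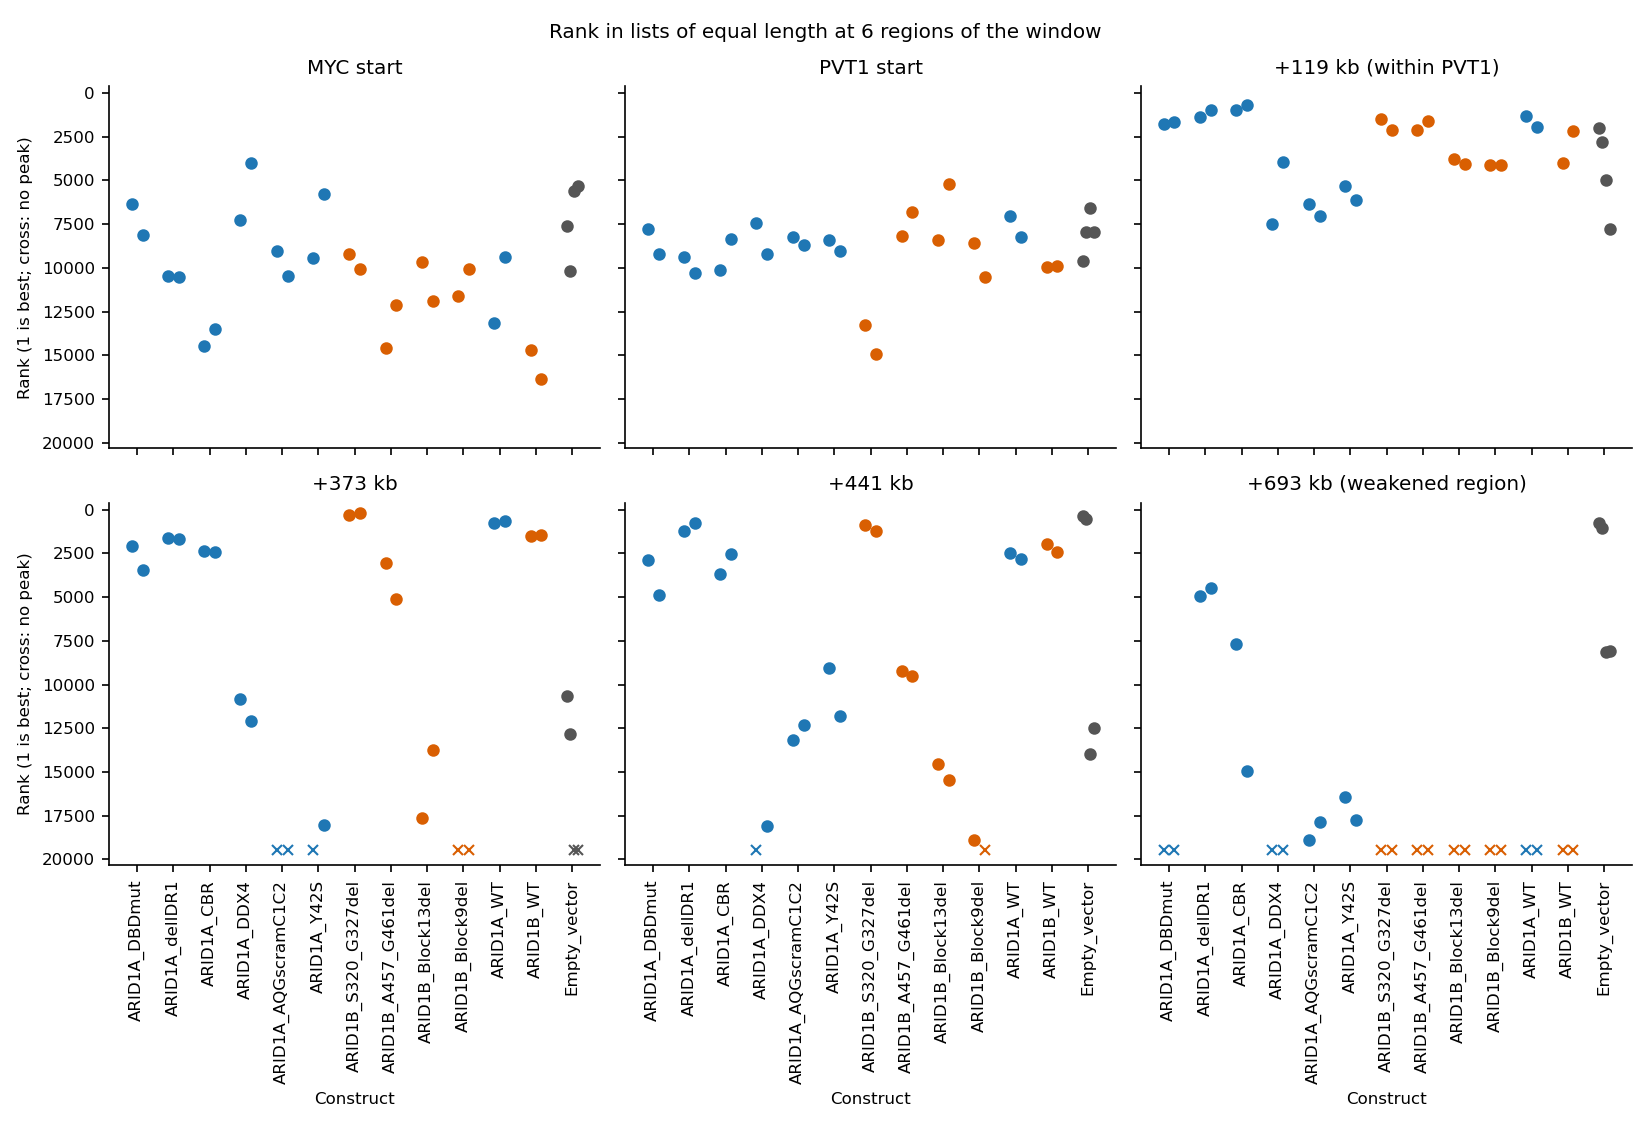
Ranks in the equal-length lists at 6 regions in each library, by construct, on axes that run down from rank 1, the strongest peak, to 19434, which stands for no peak (blue for ARID1A, orange for ARID1B, grey for Empty_vector, crosses for no peak). PVT1 start ranks stay between 5219 and 10517 outside ARID1B_S320_G327del, and the weakened region is called in all 4 Empty_vector libraries and in no wild-type library.

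Inside the body of PVT1, where enhancers of MYC are known, 15 regions were found. ARID1B_S320_G327del called 12 and 12 of them, ARID1B_A457_G461del between 9 and 12, and ARID1A_DBDmut 8 and 8. The other altered constructs called 2 to 4 per library. ARID1A_WT called 10 to 12, ARID1B_WT 9 to 12 and Empty_vector 2 to 3. Over all 32972 regions every library called between 55.3% and 58.6%, which the equal list length largely fixes. ARID1A_DBDmut thus called more of PVT1 than ARID1A_delIDR1 (4 and 4) and ARID1A_CBR (3 to 4), the other altered constructs of its date codes. The +110 kb region was called at equal length in both ARID1A_DBDmut libraries and in none of ARID1A_delIDR1 and ARID1A_CBR. In full lists every library of ARID1A_delIDR1 and ARID1A_CBR also had a peak there, at places 22470 to 47115. These differences between single constructs were not tested, since 2 libraries against 2 cannot reach an exact permutation p of 0.05.

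The strongest element of the locus by mean rank over all libraries was the +119 kb region, chr8:128865990-128867671, within PVT1. In altered libraries its rank was 686 at best, 2969 at the median and 7472 at worst. ARID1A_WT had 1340 and 1940, ARID1B_WT had 3980 and 2171, and Empty_vector had 1991, 2782, 5003 and 7804. Wild type and Empty_vector overlapped overall but not within date codes, where each wild type ranked it better. Ranked by fold enrichment, the wild-type mean was instead 3930 places worse, with overlap between the groups. Fold enrichment there was 4.29 and 4.08 with ARID1A_WT, 4.31 and 5.14 with ARID1B_WT, and 5.54, 4.89, 6.75 and 5.38 with Empty_vector. By p-value, ARID1A_CBR (981 and 686) and ARID1A_delIDR1 (1351 and 962) had the best mean ranks, and ARID1A_AQGscramC1C2 (6325 and 7012) had the worst.

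With wild-type ARID1A and ARID1B a set of regions on the PVT1 side ranked better than with the empty vector. In 9 of the 34 regions (26.5%) every wild-type library ranked the region better than every Empty_vector library, against a background of 7.09% over all regions. In 1 region (2.94%) every wild-type library ranked it worse, against 7.18%. The 25 regions with no equal-length Empty_vector call could not rank worse. The locus was chosen from this contrast, so no test is given and nothing is read from the excess. The count also depended on the setting, with 2 of 18 regions better at 9716 peaks per list (background 3.58%) and 2 of 30 by fold enrichment (background 5.32%). The 9 regions were at +7 and +18 kb, between the genes, at +74, +84, +110, +141 and +182 kb, within PVT1, and at +373 and +432 kb, downstream of PVT1. Of these, +141 and +432 kb were in no Empty_vector list even at full length, while 4 were in all 4 full Empty_vector lists and differed by rank only.

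Date-matched comparisons gave larger counts, since fewer libraries must separate. ARID1A_WT against Empty_vector of codes A and B ranked 17 regions better (background 17.4%) and 2 worse (22.5%). ARID1B_WT against Empty_vector of code C ranked 18 better (18.1%) and 3 worse (26.1%). In both comparisons 11 regions were better (32.4% of the window, against 7.97% of all regions), 1 was worse (2.94%, against 10.7%) and 1 went opposite ways (2.94%, against 3.07%). The 2 comparisons share no library, but the locus was chosen from this contrast, so nothing is read from these shares either. Regions uncalled in Empty_vector (73.5% of the window, against 30.8% of all) could not rank worse. Such regions also rank better in both comparisons wherever all wild-type libraries called them.

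The largest difference in favour of the wild types was at +373 kb, chr8:129121096-129121893, just beyond the end of PVT1. It ranked 316 and 194 with ARID1B_S320_G327del, 1630 and 1649 with ARID1A_delIDR1, and 2334 and 2436 with ARID1A_CBR. ARID1A_DBDmut had 2064 and 3449, ARID1B_A457_G461del had 3052 and 5110, ARID1A_DDX4 had 10824 and 12088, and ARID1B_Block13del had 17612 and 13713. These constructs all called it, whereas ARID1A_AQGscramC1C2 and ARID1B_Block9del did not and ARID1A_Y42S called it in 1 library, at 18023. ARID1A_WT had 749 and 616 and ARID1B_WT had 1507 and 1437, while Empty_vector had 10639 and 12831 in codes A and B and no call in code C. The wild-type mean was 14507 places better than that of Empty_vector, with uncalled libraries placed last, so the size depends on the list length. In the 4 wild-type libraries it was the best-ranked region of the whole window.

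The +110 kb region, chr8:128857455-128858539, within PVT1, showed the next largest difference, at 14425 places. It ranked 1670 and 1653 with ARID1B_S320_G327del, 11094 and 4556 with ARID1B_A457_G461del, 15604 and 15941 with ARID1A_DBDmut, and 15204 and 17668 with ARID1B_Block13del. No other altered construct called it at equal length, though ARID1A_delIDR1, ARID1A_CBR and ARID1B_Block9del had peaks there in full lists. ARID1A_WT had 9187 and 6926, ARID1B_WT had 2050 and 1873, and Empty_vector had no call at equal length. In full lists Empty_vector 1 had a peak there. Every library of ARID1B_S320_G327del and ARID1B_WT ranked it better than both of ARID1A_WT, which are of other date codes.

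The +432 kb region, chr8:129180085-129181496, followed with 11116 places. ARID1B_S320_G327del had 5896 and 3090, ARID1A_delIDR1 12599 and 11402, ARID1B_A457_G461del 13156 and 14121, and ARID1A_DBDmut 14801 and 16182, and ARID1A_CBR had 18210 in 1 library. The other 5 altered constructs did not call it. ARID1A_WT had 9189 and 6443, ARID1B_WT had 7607 and 10033, and no Empty_vector library had a peak there at any depth of its list.

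The remaining 6 of the 9 regions were smaller in difference, from 10195 places at +74 kb and 8498 at +18 kb to 5176 at +7 kb. At +74 kb, which 25 libraries called, ARID1A_WT had 4400 and 4402, ARID1B_WT had 8249 and 11020, and Empty_vector had 14071, 15912 and 2 uncalled libraries. At +182 kb, which 27 libraries called, ARID1A_WT had 10137 and 8299, ARID1B_WT had 6882 and 5655, and Empty_vector had 15999, 14916, 12294 and 18968. By fold enrichment in place of p-value the +182 kb difference reversed, to 1229 places worse in the wild types. The +84 kb (7642 places), +18 kb, +141 kb (5810 places) and +7 kb regions had no call in the equal-length Empty_vector lists.

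At +84 kb, chr8:128831815-128833191, ARID1B_S320_G327del had 7351 and 4439, ahead of ARID1A_WT at 13238 and 11805 and ARID1B_WT at 12669 and 9456. ARID1A_DBDmut (14513 and 15634), ARID1B_A457_G461del (15557 and 13608) and ARID1A_CBR (19245 and 16548) also called it in both libraries, and ARID1A_delIDR1 called it once, at 16438. At +141 kb, chr8:128888416-128889613, ARID1B_S320_G327del had 9658 and 6227, ARID1B_A457_G461del 12859 and 16342, ARID1A_WT 17268 and 16851, and ARID1B_WT 12699 and 7679. Beyond these constructs only ARID1A_delIDR1 1 called it, at 17301.

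The regions between the genes at +7 kb, chr8:128755296-128756053, and +18 kb, chr8:128766082-128767042, lay on the flank of MYC that faces PVT1. At +7 kb ARID1B_S320_G327del had 11951 and 10102, ARID1B_A457_G461del 12606 and 15114, and ARID1A_Y42S 18345 in 1 library. ARID1A_WT had 17334 and 18411 and ARID1B_WT had 11614 and 9673. At +18 kb ARID1B_S320_G327del had 11547 and 6046, ARID1B_A457_G461del 16166 and ARID1A_DBDmut 18014 in 1 library each, ARID1A_WT 13041 and 12969, and ARID1B_WT 8143 and 9593. In full lists all 4 Empty_vector libraries also had a peak at both places. Fold enrichment at +7 kb was 3.72 to 5.47 in the wild types and 2.08 to 3.50 in Empty_vector. At +18 kb it was 4.96 to 6.74 in the wild types and 3.32 to 3.96 in Empty_vector.

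The remaining region between the genes, +25 kb at chr8:128772474-128773535, was called in 27 libraries and was among the 8 best by mean rank. In codes A and B ARID1A_DBDmut had 4956 and 4222, ARID1A_delIDR1 3904 and 2878, ARID1A_CBR 5751 and 5217, ARID1A_WT 2895 and 3835, and Empty_vector 9874 and 9699. In code C ARID1B_S320_G327del had 14045 and 9744, ARID1B_WT 10187 and 11736, and Empty_vector 19056 in 1 library and no call in the other. Within each set of codes every construct ranked it better than Empty_vector. The libraries of codes D, E and F lay between 11050 and 19226.

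The altered constructs divided in how many of the 9 they called. ARID1B_S320_G327del called 9 and 9, ARID1B_A457_G461del 8 and 9, ARID1A_DBDmut 7 and 6, ARID1A_delIDR1 5 and 5, and ARID1A_CBR and ARID1B_Block13del 4 and 4 each. ARID1A_DDX4 called 3 and 3, ARID1A_Y42S 1 and 4, and ARID1A_AQGscramC1C2 and ARID1B_Block9del 2 and 2 each. Empty_vector called 3, 3, 1 and 1, so the last 4 constructs overlapped it. The wild types call all 9 by the choice of these regions. Matching counts over all 2337 regions that ranked better in every wild-type library were not made. The division is therefore not shown to be particular to this window.

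Against all 4 Empty_vector libraries, which these comparisons share, both libraries of ARID1B_S320_G327del ranked 19 of the 34 regions better (background 18.5%) and those of ARID1B_A457_G461del 13 (14.0%). ARID1A_DBDmut ranked 10 better (8.16%), ARID1A_delIDR1 8 (9.39%) and ARID1A_CBR 6 (9.86%). ARID1B_Block13del ranked 2 better (8.04%) and ARID1A_DDX4 1 (8.56%). ARID1A_AQGscramC1C2 (4.84%), ARID1A_Y42S (6.41%) and ARID1B_Block9del (6.70%) ranked none better. The window share lay above the background for the upper 5 constructs and below it for the other 5, and 2 libraries against 4 cannot reach an exact permutation p of 0.05. Regions ranked worse than in all Empty_vector libraries were few, but a region uncalled in Empty_vector cannot rank worse. That held for 25 of the 34 regions (73.5%), against 30.8% of all regions, so these counts are not comparable with their backgrounds. There were 2 each with ARID1B_S320_G327del (background 22.4%), ARID1B_A457_G461del (14.6%), ARID1B_Block13del (7.32%), ARID1B_Block9del (6.20%) and ARID1A_DDX4 (8.56%). There was 1 each with ARID1A_DBDmut (5.44%), ARID1A_delIDR1 (8.33%), ARID1A_CBR (7.76%), ARID1A_AQGscramC1C2 (3.50%) and ARID1A_Y42S (6.81%).

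Within date codes, where list lengths of Empty_vector did not mix, the counts of the 4 altered constructs that have such controls stood in the same order. Against Empty_vector of code C, ARID1B_S320_G327del ranked 22 regions better (background 20.5%) and 3 worse (31.0%). Against Empty_vector of codes A and B, ARID1A_DBDmut ranked 11 better (14.1%) and 2 worse (15.5%), ARID1A_delIDR1 8 better (14.2%) and 3 worse (17.8%), and ARID1A_CBR 6 better (14.8%) and 3 worse (16.5%). Here too, regions uncalled in Empty_vector could not rank worse.

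The weakened region lay 693 kb downstream of the MYC start, at chr8:129440114-129442354, between PVT1 and the end of the window. No wild-type library called it at equal length, although all 4 had a peak there in their full lists, while Empty_vector ranked it 771 and 1035 in codes A and B and 8119 and 8076 in code C. The peaks were 435 to 654 bp wide in the wild types and 925 to 1222 bp wide in Empty_vector. Its fold enrichment was 4.02 to 4.49 in the wild types and 5.02 to 7.49 in Empty_vector. The region was chosen for this difference, so it is given without a test.

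The altered constructs, which the choice did not use, fell into separate sets at this region. ARID1A_delIDR1 had it at 4937 and 4487, and ARID1A_CBR at 7695 and 14955. ARID1A_Y42S had it at 16429 and 17738, and ARID1A_AQGscramC1C2 at 18866 and 17851, near the end of the list. ARID1A_DBDmut, ARID1A_DDX4 and all 4 altered ARID1B constructs had no call at equal length. Ranks differed between the 10 constructs (F = 17.6, permutation test with 100000 resamples, p = 2e-05, adjusted p = 3e-05, n = 20). Without 1 of the ARID1A_delIDR1 libraries, whichever was left out, the permutation p was 0.05255 with F of 10.5 or 10.1. With lists cut to 9716 peaks the permutation p was 0.05376 with F = 23.3. Both lay above the threshold of 0.05. At 9716 peaks only ARID1A_delIDR1 1 and 2 and ARID1A_CBR 1 kept a rank. With the rest tied last, no p below 0.05 was possible there. The permutation p was 1 when a peak had to cover at least 50% of the merged region, a rule that only ARID1A_CBR 2 met among altered libraries. The merged region is 2241 bp wide and the ARID1A_CBR 2 peak 2161 bp, while the other altered peaks there were at most 1021 bp. That setting thus left almost no ranks to compare. The tests over the 10 constructs also permuted labels across date codes, so they cannot tell construct from date code. Within code E the exact permutation p was 0.143 (n = 8). Only ARID1A_Y42S called the region there and the other ranks were tied, so no smaller p was possible. In codes A and B, which hold ARID1A_delIDR1, ARID1A_CBR and ARID1A_DBDmut, the exact permutation p was 0.0667 (n = 6), also the smallest possible.

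ARID1A_delIDR1 and ARID1A_CBR, both truncations, had calls at the weakened region and also at the +373 kb region, at ranks of 1630 to 2436. ARID1A_DBDmut, of the same date codes, had +373 kb at 2064 and 3449 without a call at +693 kb. In full lists ARID1A_DBDmut did have a peak at +693 kb, at places 23301 and 19821, and the wild-type peaks were at places 25017 to 46948 in longer lists. ARID1A_DDX4 and ARID1B_A457_G461del had none in any list.

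**Figure D5:**
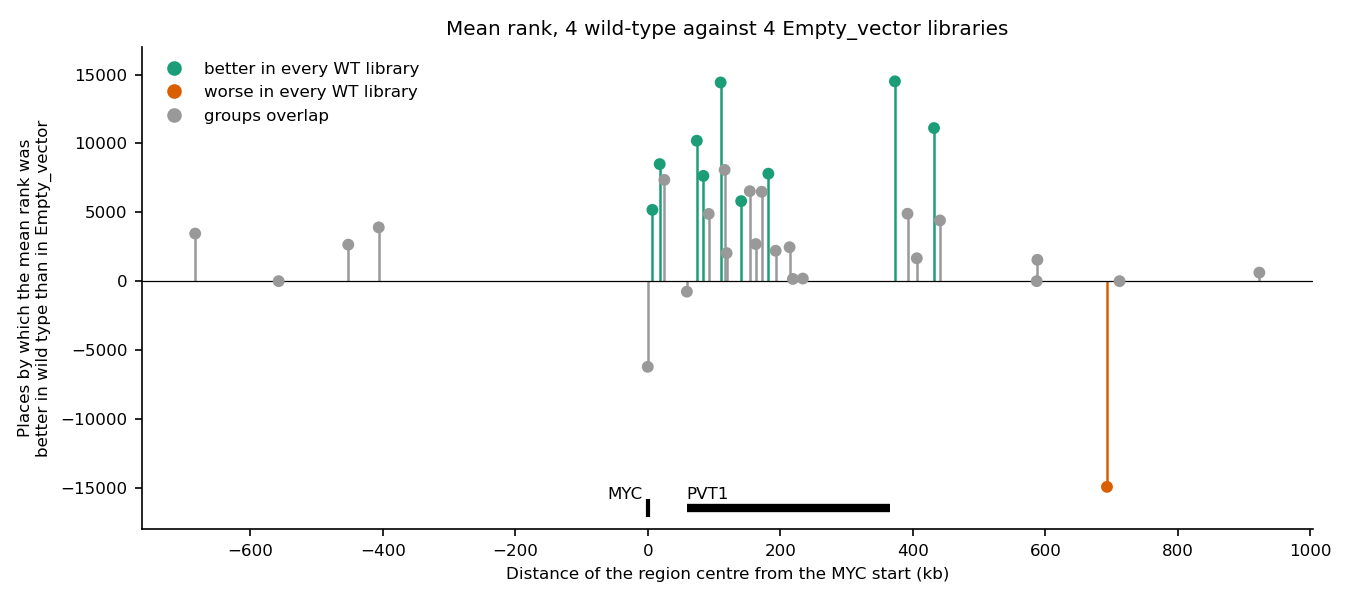
Mean rank difference between the 4 wild-type and the 4 Empty_vector libraries at each of the 34 regions, against distance from the MYC start in kb, drawn so that regions ranked better in the wild types lie above 0, with green for regions better in every wild-type library, orange for worse in every one and grey where the groups overlap. The +373 kb region is 14507 places better and the +693 kb region 14934 places worse in the wild types.

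The +441 kb region, chr8:129188377-129190006, called in 26 libraries, lay next to the +432 kb region but followed another course. ARID1B_S320_G327del ranked it 881 and 1191, ARID1A_delIDR1 1242 and 782, ARID1A_DBDmut 2870 and 4851, and ARID1A_CBR 3654 and 2503. The other altered libraries ranked it between 9072 and uncalled. ARID1A_WT had 2500 and 2825 and ARID1B_WT had 1941 and 2401, while Empty_vector had 338 and 504 in codes A and B but 13951 and 12506 in code C. It was the best-ranked window region in both Empty_vector libraries of codes A and B.

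At equal list length some regions were called in 1 class of libraries only, but in full lists each of these also had peaks in another class. Of the 25 regions with no equal-length call in Empty_vector, 3 were called in altered libraries only (8.82% of the window, against 9.40% of all regions) and 2 in wild-type libraries only (5.88%, against 1.19%). In full lists +587 kb had a peak in 4 wild-type and 2 Empty_vector libraries. Among those called in altered libraries only, the +587 kb region, singled out after its values were seen, was called by both libraries of ARID1A_CBR, ARID1A_delIDR1 and ARID1B_S320_G327del and by 1 of ARID1A_DDX4. Upstream of MYC, where 4 regions were found, none was called in Empty_vector at equal length. At that length only ARID1B_WT, ARID1B_S320_G327del and ARID1B_A457_G461del called the region 406 kb upstream of the MYC start, again singled out after its values were seen. In full lists 13 libraries had a peak there, among them both of ARID1A_WT, ARID1A_DBDmut and ARID1B_Block13del and none of Empty_vector. The nearest regions inside the window lay 64.5 and 28.4 kb from its ends and the nearest outside 110.5 and 106.4 kb.

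Regions with a similar course across the 28 libraries were sought among the 15075 regions called in at least 20 lists, of which 8 lay in the window. For the weakened region the closest in the window were +441 kb (Spearman's rho 0.36), the MYC start (0.125) and +119 kb (0.054). Outside it they were chr20:12575172-12575745 (0.874), chr19:20747767-20748820 (0.822) and chr12:53552921-53553795 (0.821). For the MYC start the closest in the window were the PVT1 start (0.137), +441 kb (-0.284) and +25 kb (-0.321), and outside it chr12:109547646-109549866 (0.774), chr17:40171765-40172372 (0.758) and chr10:17269011-17272861 (0.735). Of the 8 eligible window regions none followed the weakened region or the MYC promoter as closely as these distant ones did. The distant ones are, however, the best of a far larger search, so the inside and outside values cannot be compared. The libraries share constructs, date codes and list lengths, so the values are descriptions.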

How the data were processed

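ATAC-seq peak lists of 28 libraries in 13 groups were used, with groups taken from the sample titles. The design text speaks of CUT&Tag, but every title says ATAC-seq, which was followed. The build was hg19, and MACS2, SAMtools 0.1.19, Picard 2.8.0, Bowtie2 and bcl2fastq are the programs listed, per the submitters' processing notes. What options and control the caller had, and how cut sites were shifted, is not given in the sources used here. Each library has its own list. The fold enrichment (a ratio to the caller's background), the -log10 p-value, the -log10 q-value and the score of each peak are the authors' deposited values, and they serve here for ranks within 1 list. The minimum -log10 q-value ranged over 3.00 to 3.03 between deposited lists, and the deposited score was 10 times this value without its decimals in all but 59 peaks. The lists carry no read counts, and depth is unknown.

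Peaks on chromosomes 1 to 22 and X were kept in every list, ranked by -log10 p-value and cut to 19433 peaks, the shortest length. Overlapping peaks (1 bp or more) were merged and regions found in at least 2 libraries were kept. Uncalled regions were ranked 19434. A region ranked better or worse when the ranks of all libraries of the compared groups did not overlap. The 10 altered constructs were compared by the F statistic with 100000 label permutations, or by exact permutation within date codes, two-sided by construction, adjusted over 3 measures by Benjamini and Hochberg. The procedure was tested on simulated lists. Python 3.11.15, NumPy 2.4.6, pandas 2.3.3 and SciPy 1.17.1 were used.

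The regions named are those at the MYC and PVT1 starts, the weakened region, the 8 best by mean rank, up to 10 whose ranks did not overlap between wild type and Empty_vector, the 3 inside and 3 outside the window most like the MYC start and the weakened region, and those at the window's edges. The locus and lists were chosen with earlier results of these data known. Exons, introns and other MYC-network genes were not analysed here, as no hg19 annotation was used. Libraries of a construct shared at most 0.300% of peaks with identical values, so none was counted as a repeat. Alternatives were other list lengths, ranking by fold, a stricter q-value, merging within 500 bp, all contigs, another overlap, leaving out libraries, the replicate block and fits within date codes.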

Additional observations from a re-analysis of the deposited data

Results flagged for a closer look

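The +441 kb region differed between the date-matched comparisons. ARID1A_WT had a mean rank of 2662 and Empty_vector of codes A and B one of 421, so ARID1A_WT was 2242 places worse, in 2 of 2 libraries. ARID1B_WT had a mean rank of 2171 and Empty_vector of code C one of 13228, so ARID1B_WT was better (a difference of -11058 places), in 2 of 2 libraries. The 2 differences lay 13299 places apart, which was not tested. The wild-type means were 2662 and 2171, close to each other, and the Empty_vector pairs were far apart. The construct and the date code cannot be told apart here.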

How the results depend on the processing

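With lists cut to 9716 peaks the permutation p was 0.05376 for the weakened region and 0.07989 for the MYC start, and 2 of 18 regions ranked better in the wild types (background 3.58%). At the weakened region so few libraries kept a rank at that length that no p below 0.05 was possible. With whole lists 28 regions of 112 were called in every wild-type library and no Empty_vector library (background 18.2%) and 0 the other way (background 0.0828%), and ranks of single regions were not compared since the lists differ in length. Ranked by fold enrichment, the MYC start had p = 0.1046 (permutation test), 2 of 30 regions ranked better (background 5.32%) and 0 worse (background 3.05%). In that ranking +182 kb reversed, to 1229 places worse in the wild types, +119 kb turned to 3930 places worse, and +74 kb had a difference of 0 places. Where a peak had to cover at least 50% of the merged region, a setting chosen after seeing the data, the permutation p was 1 for the weakened region and 0.3074 for the MYC start, with 0 regions worse. In that setting most libraries lost their call at both regions, since their peaks were too narrow for the rule. Within date code E the exact permutation p was 0.1429 for the weakened region, 0.09524 for the MYC start and 0.08571 for the window count, and in codes A and B together, also chosen later, it was 0.06667 for all 3. For the weakened region in code E, tied ranks allowed no smaller p. ARID1A_WT against Empty_vector of codes A and B gave 17 better and 2 worse, and ARID1B_WT against that of code C gave 18 and 3. The cause of the other changes was not tested, except that smaller sets allow no smaller p.

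Leaving out each library in turn gave permutation p-values of 4e-05 to 0.05255 for the weakened region, 0.00164 to 0.0129 for the MYC start and 1e-05 to 4e-05 for the window count, with 9 to 12 regions better and 1 to 2 worse. With the replicate number as a block the permutation p was 0.00022, 0.006 and 4e-05 in the same order of measures, so no call changed. Deviations of same-numbered libraries correlated at -0.063 to 0.146 over 45 pairs of constructs, with 1 above 0.1, but most of these pairs share no date code. In codes A and B the number does follow the code, with 1 in A and 2 in B. There ARID1A_CBR gave 0.146 with ARID1A_delIDR1 and 0.035 with ARID1A_DBDmut, and the remaining pair gave -0.005. The exact test in codes A and B did not use this pairing. With the start peak or the main peak alone, also chosen later, the permutation p was 0.00628 for the MYC start and 2e-05 for the weakened region. With a stricter q-value 7 of 29 regions ranked better (background 6.20%), without +7 and +141 kb, and the 3 tests stayed past the threshold. Merging within 500 bp and all contigs left 9 regions better and 1 worse. An overlap of 50% of the shorter interval is met by construction. Depth is unknown, so a region without a peak is not shown to be closed.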
